A study of Mus musculus with 9 samples.

Results

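Ion channel genes of the plantaris, a fast hindlimb muscle of the mouse, were followed through 2 and 6 h of breathing 8% oxygen. The genes were those whose symbol begins with Kcn and a letter (potassium channels), Scn and a digit (sodium channels), Cacn (voltage-gated calcium channels), Clcn (chloride channels and transporters) or Ryr and a digit (calcium release channels). A mean level of at least 0.5 RPKM over the 9 libraries was required. RPKM divides reads by the counted exon length and by the library total, so levels of different genes can be set side by side on it. This does not hold for members with a very short counted length or few reads, described below. The deposited table of 13722 genes held 65 such symbols, none of them repeated, and 61 reached the limit. These were 32 potassium, 8 sodium, 13 calcium, 2 ryanodine receptor and 6 chloride genes. Members just inside the limit included Kcnn3 at 0.553 and Kcnmb4 at 0.573 RPKM. The genes left out were Kcnip3 at 0.4997, Kcnq1 at 0.482, Cacna1c at 0.426 and Kcne2 at 0.384 RPKM.

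A skeletal muscle fibre fires when acetylcholine opens receptors at the endplate and voltage-gated sodium channels carry the action potential along the membrane and into the transverse tubules. There the calcium channel built on Cacna1s acts as a voltage sensor that opens Ryr1, the release channel of the sarcoplasmic reticulum, and the released calcium starts contraction. Potassium channels repolarise the membrane, while chloride channels, above all Clcn1, hold it near rest. Channels closed by ATP, with a pore made of Kcnj11, link excitability to the energy state of the fibre.

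The mice were 3-month-old C57BL/6J males, per the labels' protocols, with no genetic change or drug named. They were held in 8% oxygen for 0 h (control), 2 h or 6 h, with 3 libraries a group, and were killed at once afterwards under a mask filled with the same gas. That killing step is written for the mice as a whole, with no separate statement for controls. Separate mice for the libraries of a group are not stated in the labels, so p-values cover only the spread among these libraries, which may be partly technical.

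The libraries held between 72706716 (6 h replicate 3) and 137097898 (2 h replicate 3) recovered reads. Fast fibre markers stood at a summed 67640 to 79280 RPKM in every library, as the tissue label has it, but the summed levels of other marker lists differed between libraries. Matrix genes summed to 733 and 786 RPKM in control replicates 2 and 3 and to 862 in 6 h replicate 2. They summed to 399 in control replicate 1, 100 to 175 at 2 h, and 281 and 175 in the other 6 h libraries. Slow fibre genes summed to 633 to 647 RPKM in control, 435 to 545 at 2 h, and 945, 1193 and 5716 in 6 h replicates 1, 2 and 3. In these sums the 3 groups did not overlap, and the part of slow fibre content in the channel values was not tested. Smooth muscle and pericyte genes summed to 134 to 168 RPKM in control, 175 to 198 at 2 h and 182 to 199 at 6 h. Of the 10, 1 gene, Myl9, rose at both times in the limma test given below. In that test 0.473% of all genes rose at 2 h and 0.999% at 6 h. In whole muscle, fewer cells of a type and less RNA per cell cannot be told apart.

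The channel set was dominated by transcripts for the proteins of excitation and of the triad, the junction of transverse tubule and sarcoplasmic reticulum. Genes with a mean of at least 100 RPKM included Ryr1 (214), Cacna1s (192) and Cacng1 (118), the gamma-1 subunit of the Cacna1s channel. In all, 14 genes had a mean of at least 10 RPKM, 23 lay between 1 and 10, and 24 were under 1.

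Among the pores of sodium, calcium and surface chloride channels and the ryanodine receptors, 1 gene held most of the RPKM. Scn4a, the adult muscle sodium pore, made up 93.6% of the level of the 4 sodium pores, and Cacna1s 98.6% of that of the 4 calcium pores. Ryr1 made up 99.6% of the ryanodine receptor level and Clcn1 94.2% of that of the 2 surface chloride channels. Potassium channels were spread more widely. Kcna7 (Kv1.7, mean 42.7 RPKM) held 56.9% of the level of the 10 voltage-gated potassium pores. Kcnj11 (24.8) and Kcnj12 (Kir2.2, 16.0) led the inward rectifiers, which set the resting potential or answer to ATP.

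**Figure D1:**
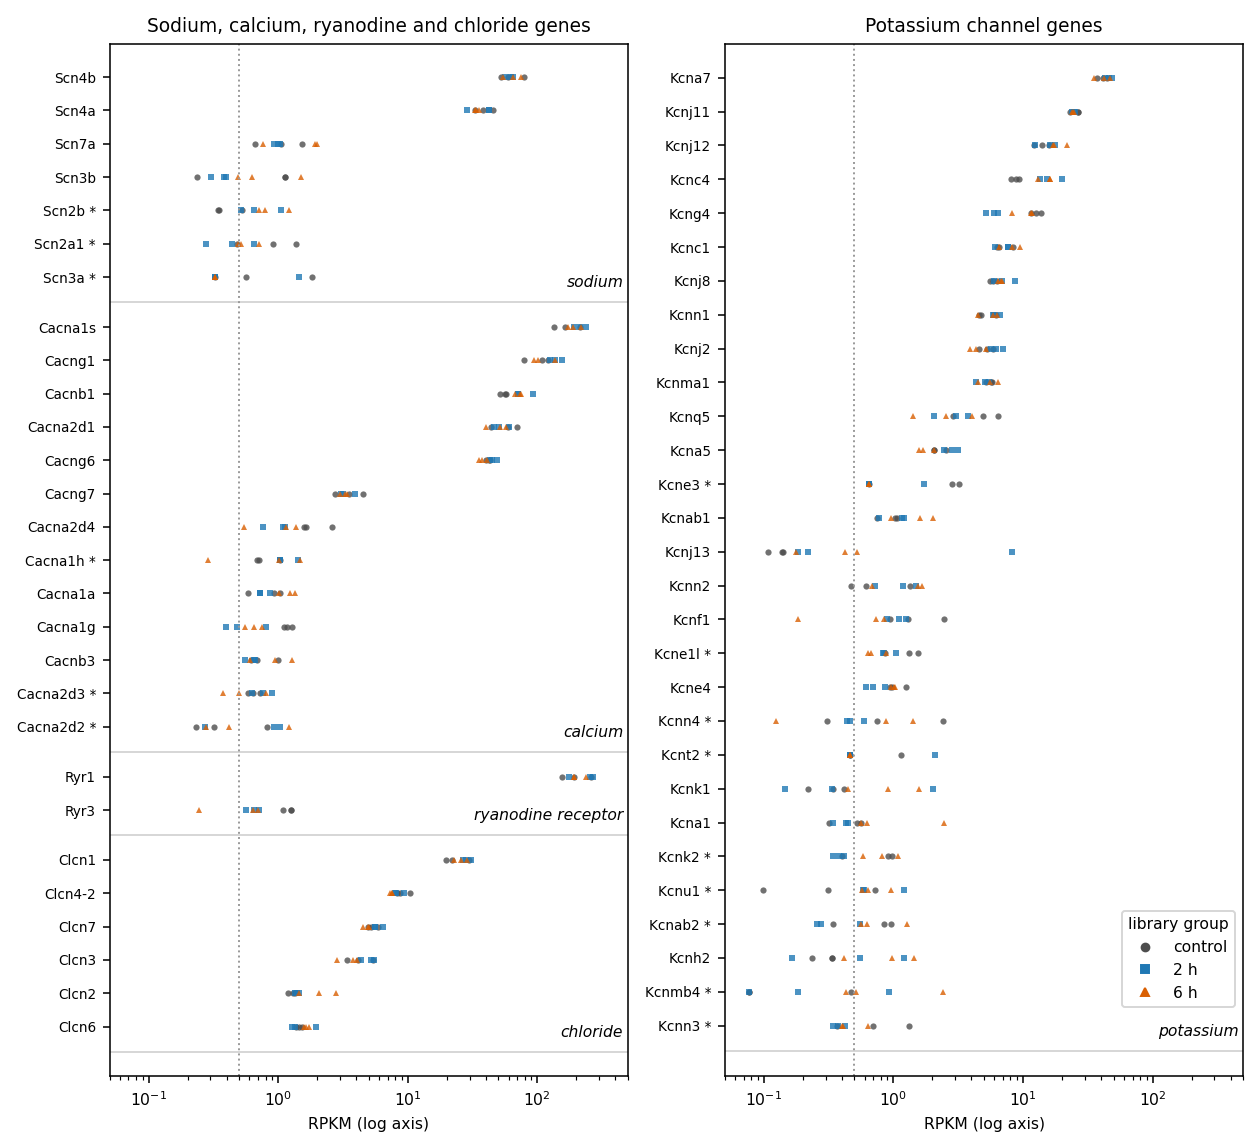
RPKM of 57 of the 61 channel genes in each library on a log axis, by ion and ordered by mean level. Circles are control, squares 2 h and triangles 6 h libraries, the dotted line is 0.5 RPKM and an asterisk marks the 15 plotted genes with a mean under 50 reads. The points of the highly expressed genes lie close together, while those of the asterisked genes scatter widely, and Kcnj13 has 1 library at 8.22 RPKM far from the rest.

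Few channel genes changed at 2 h: 2 of 61 passed the test (limma, Benjamini-Hochberg adjusted p below 0.05 over 13309 genes), where 0.774% of all tested genes did. Kcng4 fell and Kcnc4 rose, against 0.301% of all genes falling and 0.473% rising. Both encode potassium channel subunits. The median log2 fold change was 0.02 over the 61 genes and 0.00 over all genes. On the read counts edgeR called the same 2 genes (1.18% of all genes), and DESeq2 called 5 (10.2%), among them these 2, Cacnb1 and Cacna1g.

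Kcng4 encodes Kv6.4, an electrically silent subunit that forms no channel alone but joins pore-forming voltage-gated potassium subunits and shifts the voltages at which they inactivate. It lay at chr8:122147754-122159580 on the minus strand (build mm9, file coordinates), overlapped no other gene of the table and held 90.0% of the level of the 2 silent subunits. Its level was 13.8, 11.5 and 12.7 RPKM in the control libraries, 6.41, 5.21 and 6.00 at 2 h, and 8.25, 11.5 and 11.7 at 6 h. Every 2 h library was below every control and every 6 h library, and the 6 h libraries overlapped control. The mean went from 12.7 ± 1.14 (SD, n = 3) to 5.87 ± 0.613 at 2 h, a log2 fold change of -1.05 ± 0.14 (SE, limma adjusted p = 0.0298). At 6 h the mean was 10.5 ± 1.92, with a log2 difference of -0.28 from control (limma adjusted p = 0.335) and of 0.77 from 2 h (limma adjusted p = 0.0791).

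Kcnc4 encodes Kv3.4, a fast voltage-gated potassium pore suited to rapid repolarisation. It lay at chr3:107241221-107261816 on the minus strand (mm9) and overlapped no other gene of the table. Its level was 8.05, 9.33 and 8.85 RPKM in control, 20.2, 15.2 and 13.4 at 2 h, and 16.0, 13.1 and 16.2 at 6 h. All 6 hypoxia libraries lay above all 3 controls. The log2 fold change was 0.84 ± 0.15 (SE) at 2 h (limma adjusted p = 0.0496). At 6 h it was 0.75 ± 0.15, with a limma adjusted p of 0.0504 that just missed the threshold and an edgeR adjusted p of 0.0415 that passed it.

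Both calls moved with the libraries used. Both genes passed without 6 h replicate 2 (limma adjusted p = 0.0222 for Kcng4 and 0.028 for Kcnc4). Without control replicate 2, control replicate 3, any 1 of the 2 h libraries or 6 h replicate 3, neither passed (limma adjusted p between 0.0514 and 0.138 for Kcng4 and between 0.0677 and 0.195 for Kcnc4). Without control replicate 1 or 6 h replicate 1 only Kcng4 passed. The calls over all genes moved too, from 103 with all libraries to 396 without 6 h replicate 2. Limma called 0 of all genes without control replicate 2, control replicate 3 or 2 h replicate 2. It called 13, 11 and 18 without 2 h replicate 1, 2 h replicate 3 and 6 h replicate 3. Without control replicate 1 and 6 h replicate 1 it called 160 and 30. The summed level of the matrix genes was lower in each 2 h library than in any control, though Lox and Fn1 overlapped control replicate 1. Leaving out the 3 libraries with high matrix levels gave log2 fold changes of -1.17 and 0.95, as large as with them, but 1 control library was then left and neither gene passed (limma adjusted p = 0.262 and 0.319).

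**Figure D2:**
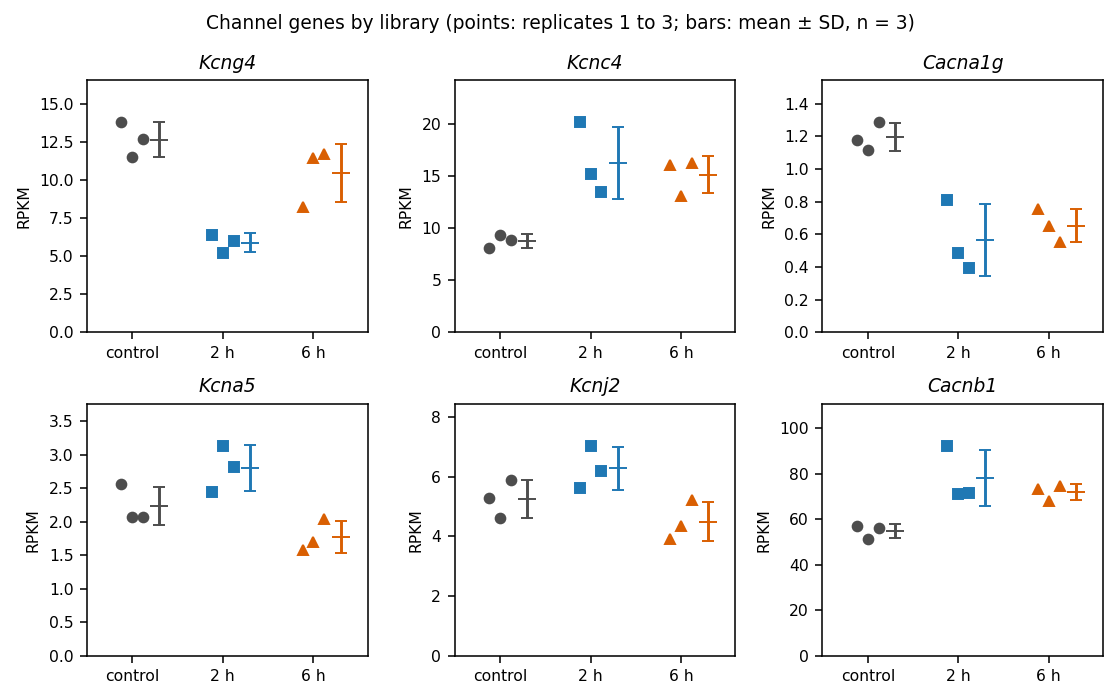
RPKM of 6 channel genes in each library, with replicates 1 to 3 from left to right in each group and the mean ± SD beside them (n = 3). Kcng4 drops at 2 h to 5.87 RPKM, Kcnc4 is higher at both times, Cacna1g is below control at both times, Kcna5 and Kcnj2 are lower at 6 h than at 2 h, and Cacnb1 is above control at both times.

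The promoters of the 2 genes that passed the test are shown to set their sequence beside their opposite changes. The windows run from 250 bases before to 50 bases after the RefSeq start on the gene's own strand (build GRCm38.p6, chr8:119635631-119635930 for Kcng4 and chr3:107458849-107459148 for Kcnc4, both minus), with E-boxes, CANNTG, in capitals.
Kcng4: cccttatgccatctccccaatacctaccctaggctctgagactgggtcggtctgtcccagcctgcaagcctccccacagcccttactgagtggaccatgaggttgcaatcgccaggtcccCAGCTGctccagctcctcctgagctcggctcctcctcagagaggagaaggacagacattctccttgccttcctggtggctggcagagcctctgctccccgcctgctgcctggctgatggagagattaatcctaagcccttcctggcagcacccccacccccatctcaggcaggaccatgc
Kcnc4: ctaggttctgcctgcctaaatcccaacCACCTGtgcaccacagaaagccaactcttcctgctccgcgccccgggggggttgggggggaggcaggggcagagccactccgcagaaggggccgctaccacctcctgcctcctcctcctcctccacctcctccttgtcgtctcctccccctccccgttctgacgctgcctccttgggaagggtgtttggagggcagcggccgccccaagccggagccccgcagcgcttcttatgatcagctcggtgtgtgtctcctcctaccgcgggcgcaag
Each window held 1 E-box, CAGCTG from base 121 in Kcng4 and CACCTG from base 28 in Kcnc4, counted from the 5′ end. An E-box stood in 72.3% of the 32851 mouse promoter windows and in 70.2% of the 57 windows of 43 channel genes. Neither window held the hypoxia response core ACGTG (19.6% of all windows, 24.6% of channel windows), the clock E-box CACGTG (7.15%), TGTTCT (19.0%), GTAAACA (3.65%) or TATAAA (13.6%). Both strands were searched, and CACGTG contains both ACGTG and an E-box. These are matches of letters in a short window and say nothing of whether a factor was bound.

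At 6 h, 0 of the 61 channel genes passed the test in limma, where 1.6% of all genes did (0.999% higher and 0.601% lower). At an unadjusted p below 0.05 there were 14 (19.1% of all genes), and at 2 h there had been 10 (20.1%). By edgeR 1 passed, Kcnc4 (2.37% of all genes), and by DESeq2 3, namely Kcnc4, Kcnf1 and Ryr3 (8.34%). The median log2 fold change of the channel genes was 0.06, against 0.05 over all genes. Without 6 h replicate 2, the library of highest matrix level, Kcnc4 and Clcn2 passed. In that fit 417 of all genes did, against 213 with all libraries. Without 2 h replicate 1 Kcnc4 passed, where 223 of all genes did.

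Between 6 h and 2 h limma again called 0 of 61, against 0.143% of all genes (0.0676% higher and 0.0751% lower). There were 11 at an unadjusted p below 0.05 (16.4% of all genes), 0 by edgeR (0.601%) and 6 by DESeq2 (6.49%), among them Kcng4 and Kcna1, higher at 6 h, and Kcna5, Kcnj2 and Cacng6, lower. Kcna1 reached the level limit only through 6 h replicate 1, at 2.46 RPKM against 0.319 to 0.626 elsewhere. The median was -0.01 over the channel genes and 0.05 over all genes. The smallest p was that of Kcng4.

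Kcna5 and Kcnj2 were lower at 6 h than at 2 h without passing limma. Kcna5, the Kv1.5 pore known from vascular muscle and heart, stood at 2.56, 2.06 and 2.07 RPKM in control, 2.45, 3.13 and 2.82 at 2 h, and 1.58, 1.70 and 2.04 at 6 h. Kcnj2, the Kir2.1 inward rectifier that stabilises the resting potential, stood at 5.28, 4.61 and 5.87 RPKM in control, 5.61, 7.04 and 6.19 at 2 h, and 3.90, 4.35 and 5.20 at 6 h. In both, every 6 h library was below every 2 h library, and the 2 h libraries overlapped control. The log2 differences of 6 h from 2 h were -0.54 for Kcna5 (limma adjusted p = 0.12) and -0.45 for Kcnj2 (limma adjusted p = 0.165). Cacng6, a calcium channel gamma subunit at 41.7, 45.6 and 37.9 RPKM on average in the 3 groups in order of time, differed by -0.26 (limma adjusted p = 0.203).

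**Figure D3:**
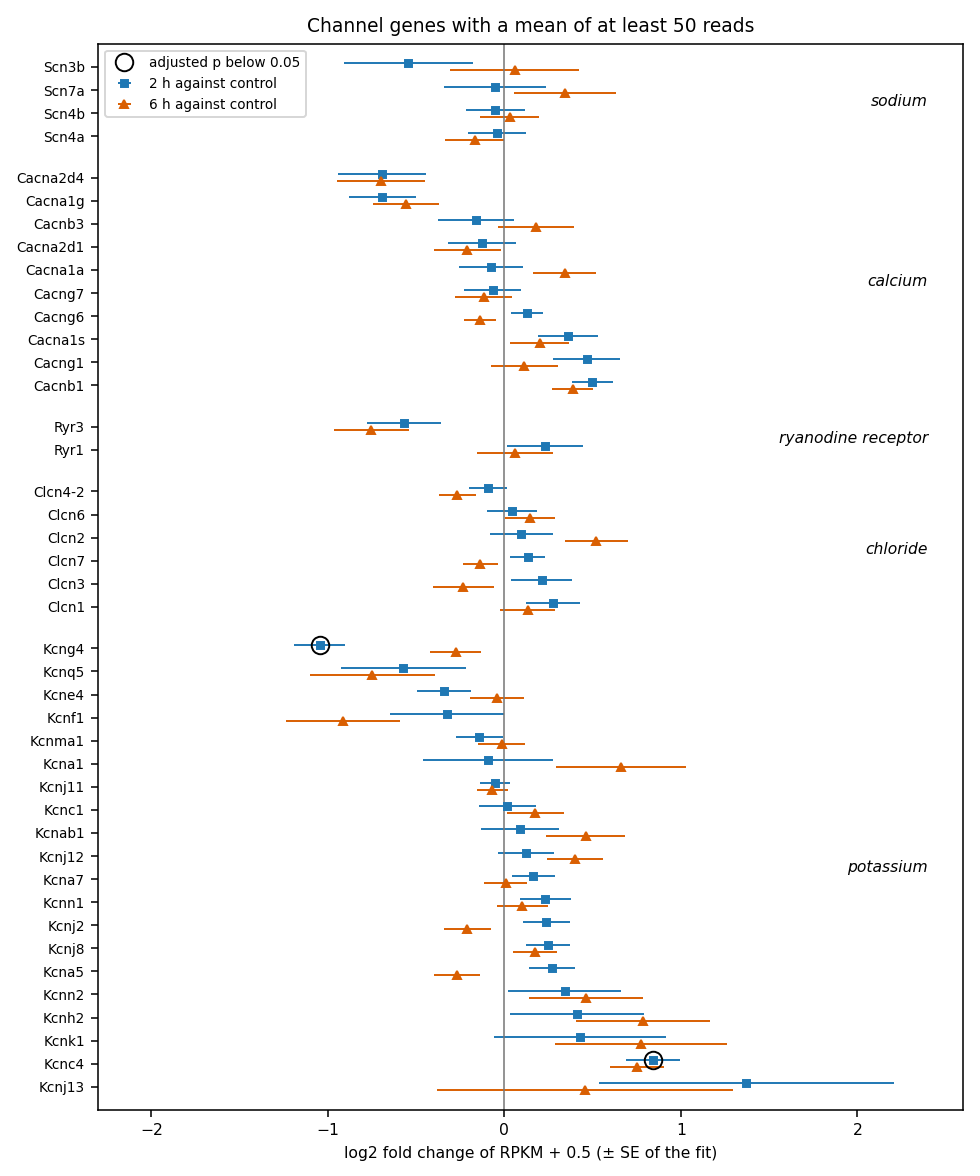
Log2 fold change of RPKM + 0.5 against control at 2 h (squares) and 6 h (triangles), with the SE of the limma fit, for 42 channel genes with a mean of at least 50 reads, by ion. Circles mark an adjusted p below 0.05. Only Kcng4 (-1.05) and Kcnc4 (0.84) at 2 h are circled, and the 2 times share their controls.

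Of 9 channel genes that carry excitation and calcium release in the adult fibre, 0 passed at either time in limma. Of all genes, 0.774% passed at 2 h and 1.6% at 6 h. At 2 h, 2 of the 9 had an unadjusted p below 0.05 (Cacnb1 and Cacng1), where 20.1% of all genes did. At that time edgeR called 0 (1.18% of all genes) and DESeq2 called Cacnb1 (10.2% of all genes). At 6 h, 1 of the 9 had an unadjusted p below 0.05 (Cacnb1), where 19.1% of all genes did. At 6 h edgeR and DESeq2 called 0 (2.37% and 8.34% of all genes). Ranges given below are the 95% confidence intervals of the limma fold changes on the log2 scale.

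Scn4a stood at 45.1, 33.0 and 37.9 RPKM in control, 42.3, 42.4 and 28.8 at 2 h, and 33.8, 35.4 and 33.0 at 6 h. Its groups overlapped, with intervals of -0.42 to 0.33 at 2 h and -0.54 to 0.21 at 6 h. Scn4b, the beta-4 subunit, had means of 64.1, 61.1 and 65.0 RPKM in the 3 groups, which also overlapped.

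In the calcium channel complex of the transverse tubule, Cacnb1, the beta subunit needed to place the complex in the triad, had the smallest p at both times. It stood at 56.8, 51.4 and 56.1 RPKM in control, 92.2, 70.8 and 71.4 at 2 h, and 73.1, 67.7 and 74.7 at 6 h. Every hypoxia library exceeded every control, with log2 differences of 0.50 at 2 h (limma adjusted p = 0.0724) and 0.39 at 6 h (limma adjusted p = 0.128), short of the threshold. Cacng1 was above control in every 2 h library, at 156, 126 and 138 RPKM against 78.7, 120 and 108, and overlapped it at 6 h (93.6, 136 and 101 RPKM). Its 2 h difference was 0.47 (limma adjusted p = 0.215). The pore, Cacna1s, stood at 212, 135 and 162 RPKM in control, 214, 238 and 192 at 2 h, and 216, 171 and 190 at 6 h. The groups overlapped, with an interval of -0.02 to 0.74 at 2 h. Cacna2d1, the alpha-2-delta-1 subunit, also overlapped, with means of 58.0, 52.5 and 49.7 RPKM.

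Summed over the 13 calcium channel genes, the level was 472, 402 and 436 RPKM in control, 571, 547 and 502 at 2 h, and 484, 466 and 464 at 6 h. The 2 h libraries stood above both other groups, and Cacna1s held 39.8% of the sum. Control replicates 2 and 3, with high matrix levels, were the lowest 2. At 6 h, replicate 2, also of high matrix level, stood at 466, and replicate 3, with a matrix sum of 175 RPKM, at 464. Cacna1s and Clcn1 were among 5 channel genes lower in each of the 3 libraries of high matrix genes than in each of the other 6, a pattern seen in 8.2% of channel genes and 4.8% of all genes; its part in the calcium sums was not tested.

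The release channel Ryr1 stood at 259, 155 and 190 RPKM in control, 271, 257 and 177 at 2 h, and 236, 191 and 192 at 6 h. All groups overlapped, with an interval of -0.26 to 0.71 at 2 h and -0.43 to 0.54 at 6 h. Ryr3, a minor isoform, was far lower, at 1.26, 1.25 and 1.09 RPKM in control, 0.655, 0.568 and 0.716 at 2 h, and 0.703, 0.636 and 0.247 at 6 h. All 6 hypoxia libraries lay below all controls. Its log2 differences were -0.57 at 2 h (limma adjusted p = 0.182) and -0.75 at 6 h (limma adjusted p = 0.108; DESeq2 called the latter). Ryr1 overlaps Gm16799 and Ryr3 overlaps Aven on the opposite strand, and whether the counting used strand is not given in the sources used here.

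Cacna1g, the Cav3.1 T-type pore, was also below control at both times, at 1.18, 1.12 and 1.29 RPKM in control, 0.813, 0.484 and 0.395 at 2 h, and 0.756, 0.653 and 0.553 at 6 h. All hypoxia libraries were lower than all controls, at 25 to 97 reads a library. The log2 differences were -0.69 (limma adjusted p = 0.103) and -0.56 (limma adjusted p = 0.167).

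Clcn1, the main resting chloride conductance of the fibre, stood at 29.7, 19.7 and 22.0 RPKM in control, 28.0, 30.8 and 26.7 at 2 h, and 28.9, 22.9 and 25.7 at 6 h. The groups overlapped, with an interval of -0.07 to 0.63 at 2 h and -0.22 to 0.48 at 6 h. Clcn2, a widely expressed inwardly rectifying chloride channel, stood at 1.35, 1.30 and 1.18 RPKM in control, 1.44, 1.36 and 1.41 at 2 h, and 2.82, 1.46 and 2.05 at 6 h. All 6 h libraries exceeded all others, with a log2 difference from control of 0.52 (limma adjusted p = 0.17). Both overlap genes on the other strand, Fam131b for Clcn1 and Fam131a and Polr2h for Clcn2. The 4 vesicle and lysosome exchangers Clcn3, Clcn4-2, Clcn6 and Clcn7 summed to 18.0 to 23.2 RPKM in control, 19.3 to 23.0 at 2 h and 16.9 to 18.2 at 6 h, lower in every 6 h than in every 2 h library.

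Kcnj11, the pore of the ATP-closed channel, stood at 23.2, 26.8 and 26.7 RPKM in control, 24.7, 25.2 and 23.8 at 2 h, and 24.9, 24.4 and 23.7 at 6 h. Its intervals of -0.25 to 0.14 at 2 h and -0.26 to 0.13 at 6 h were the narrowest of the 9. Its partner in muscle, the sulfonylurea receptor Abcc9, ranged from 25.7 to 39.0 RPKM and did not pass either. Kcna7 had means of 41.0, 45.9 and 41.4 RPKM and overlapping groups.

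Counting genes whose groups did not overlap gave shares close to those of all genes. At 2 h, 7 channel genes lay wholly above control and 8 wholly below, 24.6% of the 61 against 27.5% of all tested genes (14.9% above and 12.6% below). At 6 h, 12 lay above and 6 below, 29.5% against 25.9% of all genes (16.9% above and 8.99% below). Between 6 h and 2 h, 10 were higher and 7 lower, 27.9% against 22.6% of all genes (13.7% higher and 8.97% lower). Kcnj13, counted above control at both times, had a mean of 0.239 RPKM without 2 h replicate 2, under the level limit. Kcna1, counted higher at 6 h than at 2 h, had a mean of 0.477 RPKM without 6 h replicate 1, also under it. Each reached the limit only through that library.

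Some members were high in 1 library, where marker genes of another tissue were high too. Kcnj13 (Kir7.1, known from the choroid plexus, the tissue that makes cerebrospinal fluid, and from retinal pigment epithelium) stood at 8.22 RPKM in 2 h replicate 2, from 1330 reads, and at 0.107 to 0.524 in the other 8 libraries. Kcne2, a beta subunit of the same epithelium and just under the level limit, stood at 3.28 RPKM there and at no more than 0.0519 elsewhere. Without those genes, all 9 others of a choroid plexus list had their highest level in that library, at a summed 1721 RPKM against 4.69 to 29.9 elsewhere. The leading one was Ttr, transthyretin, at 1494 RPKM. That list was drawn up after the values were seen.

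Kcna1, the Kv1.1 pore of myelinated axons, stood at 2.46 RPKM in 6 h replicate 1 and at 0.319 to 0.626 elsewhere. All 10 nerve and Schwann cell markers were highest in that library, at a summed 663 RPKM against 61.3 to 93.1 elsewhere, with Mbp, a myelin gene, at 213 RPKM. An axon and neuron list, drawn up after the values were seen, did not peak there. Its genes summed to 10.2 RPKM in that library and to 6.91 to 22.8 elsewhere, with 1 of 5 highest there. Scn3b, a sodium channel beta subunit, stood at 1.13 and 1.14 RPKM in control replicates 2 and 3 and at 1.49 in 6 h replicate 2. These were the libraries of high matrix genes, and Scn3b stood at 0.237 to 0.629 in the other 6. Levels higher in each of these 3 libraries than in each of the other 6 were seen in 3.28% of channel genes and 11.1% of all genes. Macrophage markers summed to 167, 189 and 278 RPKM in those 3 libraries and to 41.6 to 62.1 in the others. The part of these other tissues in the values was not tested.

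**Figure D4:**
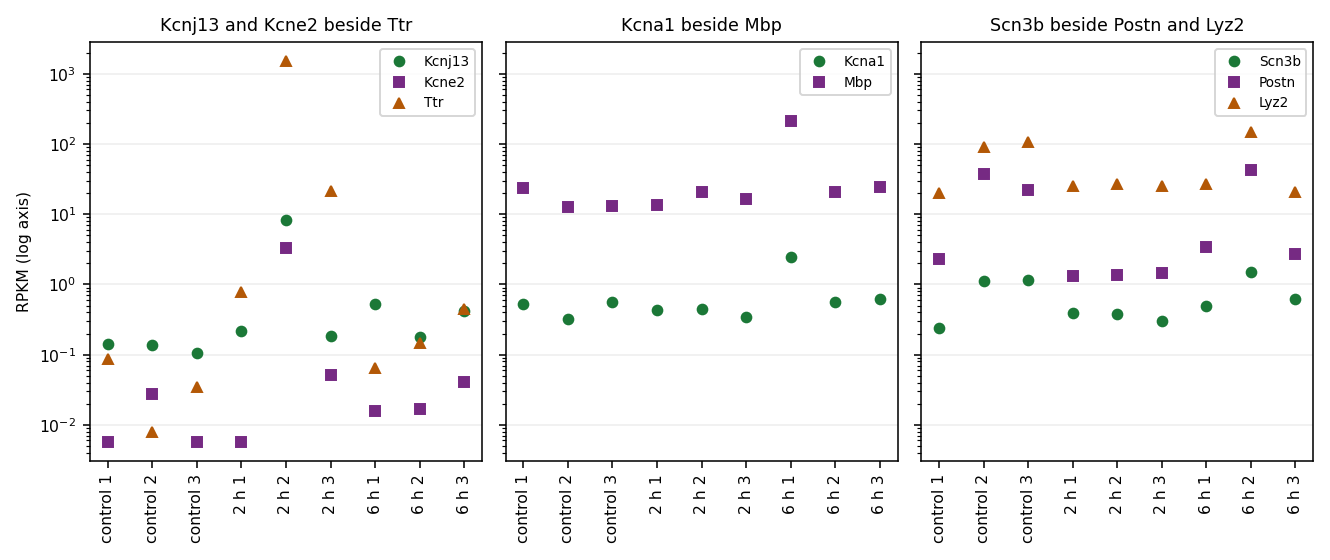
RPKM on a log axis in each of the 9 libraries for Kcnj13 and Kcne2 beside Ttr (left), Kcna1 beside the myelin gene Mbp (middle), and Scn3b beside the matrix gene Postn and the macrophage gene Lyz2 (right). Ttr reaches 1494 RPKM in 2 h replicate 2 and Mbp 213 in 6 h replicate 1, the libraries where Kcnj13 and Kcna1 peak.

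Many of the other members were low. Of the 61 genes, 16 had a mean under 50 reads and 9 a mean under 10, and 5 had at least 1 library with no read. In 6 the exon length implied by the values was under 100 bases, down to 15 bases for Kcne3. Kcne3, a beta subunit reported to join Kv3.4 in muscle, thus had a mean of 1.30 RPKM from at most 5 reads in any library and none in 6 of 9. The deposited values count 1 read more than was seen, and without it 5 members (Kcnt2, Scn2a1, Scn3a, Kcnmb4 and Kcnn3) would fall under the level limit. Of the 16, limma, edgeR and DESeq2 called 0 in each comparison. At an unadjusted p below 0.05 there were 3 at 6 h (19.1% of all genes) and 1 between the times (16.4%).

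Genes that work beside these channels were tested in the same fit. Of 20 partners in excitation-contraction coupling, 0 passed in limma in any comparison. Of all genes, 0.774% passed at 2 h, 1.6% at 6 h and 0.143% between the times. At an unadjusted p below 0.05 there were 8 partners at 2 h, 1 at 6 h and 3 between the times, where 20.1%, 19.1% and 16.4% of all genes were. DESeq2 called 5, 2 and 3, against 10.2%, 8.34% and 6.49% of all genes, and edgeR called 0 in each. The nearest was Mtmr14, a phosphoinositide phosphatase, with 9.91, 8.30 and 8.12 RPKM in control, 14.3, 12.9 and 14.3 at 2 h, and 13.6, 10.7 and 13.7 at 6 h (log2 0.64, limma adjusted p = 0.0539, and 0.50, limma adjusted p = 0.0773). Of 8 sodium pump genes, 1 rose at 6 h, the regulatory subunit Fxyd6, from 41.9, 35.1 and 33.2 RPKM in control to 54.6, 55.0 and 67.9. Its log2 fold change was 0.68 (limma adjusted p = 0.0345), and edgeR and DESeq2 also called it. Of all genes at 6 h, limma called 0.999% higher, and edgeR and DESeq2 called 2.37% and 8.34% in either direction.

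Of 7 endplate receptor and clustering genes tested, limma, edgeR and DESeq2 called 0 in each comparison, with 0 at an unadjusted p below 0.05. Both sulfonylurea receptors gave the same counts of 0. Over all genes limma called 0.774%, 1.6% and 0.143% at 2 h, 6 h and between the times. By edgeR the shares were 1.18%, 2.37% and 0.601%, and by DESeq2 10.2%, 8.34% and 6.49%. Of 11 other chloride and anion channel genes limma called 0. At an unadjusted p below 0.05 there were 2, 1 and 1 at 2 h, 6 h and between the times (20.1%, 19.1% and 16.4% of all genes). Clic5, an intracellular chloride channel protein, was called by edgeR and DESeq2 at both times, and Ano10 by DESeq2 between them. Clic5 stood at 43.0, 36.5 and 39.1 RPKM in control, 28.5, 28.8 and 25.2 at 2 h, and 30.2, 31.9 and 27.1 at 6 h, with all hypoxia libraries below all controls.

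The authors' deposited table gave Kcng4 a fold change of -2.16 at 2 h with an adjusted p-value of 0.0795. For Kcnc4 the authors' deposited table gave 1.84 at 2 h and 1.72 at 6 h, with adjusted p-values of 0.116 and 0.0945. A negative fold change there is a fall by that factor, and the test behind those p-values is not given in the sources used here.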

How the data were processed

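Gene values are RPKM as deposited by the authors. Per the submitters' processing notes, FastQC, TopHat2, Bowtie2, SAMtools and bedtools were used with the mouse build mm9, in versions that are not given; neither the counter nor its strand setting is named there. The authors also deposited each gene's largest raw count of reads over the libraries, fold changes (ratios, negative for a fall), p-values and their own group means and SDs. The deposited SDs, entered as signal values because they are in RPKM and never negative, were not used.

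The spacing of low RPKM values gave back whole reads (tolerance 0.1 read) in 100% of 40181 values below 500 reads. Where a gene's lowest value recurs, in 384 genes, the largest recovered read count matched the deposited maximum. Recovered totals are mostly above the yields that the labels quote, and serve as relative depth.

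The fit was limma 3.58.1 (R 4.3.3) with a mean-variance trend on log2(RPKM + 0.5), with all 9 libraries and group means, over 13309 genes with a mean of at least 0.5 RPKM. Fold changes on this scale understate those of low genes. Benjamini-Hochberg adjustment was made per comparison, with a threshold of 0.05. Both comparisons with control share its libraries. edgeR 4.0.16 and DESeq2 1.42.0 were run on the recovered reads. The fit was tested on simulated data.

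The members, the lists and the tests were chosen with earlier results of these data known. Genes named are those passing, the 5 smallest p per comparison, textbook channels of the fibre, the 3 highest per class, those beside the level limit, and those over 3 times higher in 1 library than in any other; the values of some genes under this rule are not reported here, though they stay in the counts over all members. Other genes (Kcnf1, Scn3b, Kcne3, Mtmr14, Clic5, Ano10 and names inside counts) were picked after their values were seen, as were the choroid plexus, liver and axon lists. Promoters are from RefSeq tables of GRCm38.p6. Of 8 liver genes only Alb was in the table, at 0.0490 to 1.67 RPKM. Axon genes (5 of 9 in the table) summed to 6.91 to 22.8 RPKM, endothelial genes to 61.4 to 85.7, and heart genes (2 of 4 in the table) to 1.59 to 21.9, highest in 6 h replicate 3. Across all marker lists limma called Myl9 alone and edgeR called Myl9 and Tek. DESeq2 called both, along with matrix, slow fibre and fast fibre genes. It also called the endothelial genes Cdh5 and Vwf, Mcam of the smooth muscle and pericyte list and Myh6 of the heart list.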

Additional observations from a re-analysis of the deposited data

How the results depend on the processing

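The 3 counts of channel genes called moved with several settings. At 2 h the count of 2 went to 1 with a pseudocount of 1, without the mean-variance trend and with only the 2 groups compared, where Kcng4 stayed. It went to 0 without the 3 libraries of high matrix genes or with a term for them, to 5 with DESeq2 and to 13 with library weights, which called 3068 of all 13309 genes. At 6 h the count of 0 went to 1 with a pseudocount of 0.1, a filter at a mean of 1 RPKM, median-ratio scaling, quantile normalization, edgeR and a filter at a mean of 50 reads (chosen after seeing the data), each time Kcnc4. Those fits called 217 to 316 of all genes, against 213 in the main fit. The count went to 3 with DESeq2 (1110 of all genes) and to 25 with library weights (4113 of all genes). Between 6 h and 2 h the count of 0 went to 6 with DESeq2 (864 of all genes) and to 1 with library weights (119 of all genes). Leaving out 1 library at a time gave counts from 0 to 2 at 2 h, 0 to 2 at 6 h and 0 between the times. Over all genes these omissions gave 0 to 396, 10 to 417 and 0 to 9 calls. The median log2 fold change ran from -0.0317 to 0.115 at 2 h across these omissions. Between the times the median of -0.0141 went to -0.0891 with the filter at 1 RPKM and to -0.0877 with quantile normalization. The cause of these shifts was not tested, except that fewer libraries or fewer genes entered some fits. No called value reversed, and Kcng4 and Kcnc4 kept their sign at 2 h in all 24 alternatives, passing in 15 and 10.

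All genes called at 2 h, 6 h and between the times numbered 103, 213 and 19 in limma, 157, 316 and 80 in edgeR and 1358, 1110 and 864 in DESeq2. With the replicate number as a block, 0 channel genes were called at 2 h (limma adjusted p = 0.0779 for Kcng4 and 0.0786 for Kcnc4), and 1, 43 and 2 genes of all. The numbers share no stated source: the 9 same-numbered pairs had correlations of -0.33 to 0.49, 2 of them over 0.1, and 4 of 9 libraries correlated best with one of their own number.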
